A study of Oryza sativa with 6 samples.

Results

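The long-term response of rice roots to mercury (Hg) was measured on 3 two-colour oligonucleotide arrays, out of 6 arrays in the series. These 3 were chosen by their titles as the long exposures. On each of them, RNA from roots kept in Hg for 24 h was labelled with Cy5 and RNA from roots kept in water was labelled with Cy3. The plants were 6-day-old seedlings of Oryza sativa cv. TN-67, a cultivated rice, and the sources used here mention no introduced gene. The dose was 25 µM Hg by the study's methods, whereas the labels give 25 mM, so the unit follows the methods. The water control carried no agent, and its exposure time was not given in the sources used here. The other 3 arrays hold the short-term exposure, in which RNA from 1 h and 3 h of Hg was pooled, and they are used below only to show where the 24 h values differ. Whether both exposures shared control RNA is not stated. The labels call the tissue roots and the methods call it root tips. Each array was a biological replicate, and how many plants went into each is not given. No dye swap was made, so a dye effect specific to a gene cannot be told apart from Hg.

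Mercury ions bind the thiol groups of proteins and peptides, and roots are the organ in which plants hold most of the metal. Plants respond to thiol-binding metals with metallothioneins, which are small cysteine-rich proteins that hold metal ions, and with chelation by glutathione and its polymers. Aquaporins, the water channels of membranes, are a classical target of Hg in transport studies. Heavy metals and pathogens also share parts of their root response, including chitinases, peroxidases and the antimicrobial diterpenoids of rice.

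The measure throughout is the log2 ratio of Hg over water control within an array, where 1 is a doubling and -1 is a halving. Values of the 3 arrays are listed in the order of replicates 1, 2 and 3, followed by the mean ± SD (n = 3). A gene was called upregulated or downregulated when limma's moderated test gave a Benjamini-Hochberg adjusted p below 0.05 over all 21842 genes tested and the mean was at least 2-fold. At 24 h, 1963 genes (8.99%) were upregulated and 1316 (6.03%) were downregulated, and 3267 of the 3279 called genes had the same sign on all 3 arrays. The median log2 ratio of all genes was -0.06. Counts of called members of a list are to be read against the shares of 8.99% and 6.03%. The 24 h arrays lay on 1 slide of their own, had 33840 to 34927 spots well above background per channel, and correlated with each other at 0.885 to 0.927 across genes, which are not independent replicates. Roots hold several cell types, so fewer cells of a type and less RNA per cell cannot be told apart in these ratios. The arrays had no saturated spots, and their number limits the precision. All 4 root markers were well above background in both channels on all 3 arrays. They did not share a level: the RCc3 locus Os02g0662000 read -0.22 ± 0.29, the locus Os03g0107300 of the silicon efflux transporter 0.86 ± 0.48, OsNIP2;1 1.83 ± 0.60 and OsPIP2;5 2.09 ± 0.04, the last pair being called. Only 1 of the 3 shoot loci passed the signal filter, at signals of 28.4 to 82.2.

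Replicate 1 lay nearest to 0 for 1252 of 1959 upregulated genes and for 737 of 1314 downregulated genes with a value on every array. Replicate 3 lay farthest from 0 for 1089 of the upregulated genes. The cause was not tested. On none of the 3 arrays did the control signal stand well above background for 193 of the upregulated genes, nor the Hg signal for 67 of the downregulated genes. Such a gene has only a bound, given here as "at least N-fold": the mean of the bright channel against, on each array, the higher of the dim signal and the lowest signal well above background. For the bounds alone, the mean signals of the arrays were first brought to a common distribution. A bound holds only with the software's own background correction. With another correction several ratios were smaller than their bound. The log2 values of genes with a dim channel also shrank when the background was corrected by another method, and every gene below whose call ended in that way is named where it is described.

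The strongest inductions among genes with a named product and with both channels well above background were a chitinase and a pair of metallothioneins. Chitinase 1 (Os10g0416500), an enzyme that cuts the chitin of fungal walls, read 5.39, 4.55 and 7.48 (5.81 ± 1.51, adjusted p 0.000304), which is 56.0-fold, and lost its call with the methods' t-test (adjusted p 0.0577). OsMT1-4a (Os12g0570700) read 4.59, 6.24 and 5.42 (5.42 ± 0.83, adjusted p 8.65e-05). A metallothionein type 1 gene at Os12g0571000, also on chromosome 12, read 4.09, 6.17 and 5.61 (5.29 ± 1.07, adjusted p 0.000292). Chitinase 1 was highest on replicate 3, whereas both metallothionein genes were highest on replicate 2.

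L-ascorbate oxidase (Os06g0567900), which oxidises ascorbate outside the cell, read 4.0, 4.70 and 4.58 (4.43 ± 0.37). Peroxidase 1 (Os05g0162000) read 4.16, 4.17 and 4.62 (4.32 ± 0.26), and a further peroxidase (Os03g0235000) read 3.76, 4.98 and 5.28 (4.67 ± 0.81). Plant peroxidases of this kind oxidise phenolics with hydrogen peroxide. A gene described as the probenazole-inducible protein PBZ1 (Os12g0555200), a pathogenesis-related protein, read 4.13, 3.69 and 5.21 (4.35 ± 0.78). The locus listed as PBZ1 from textbook knowledge, Os12g0555500, read 4.30, 1.46 and 7.15 (4.30 ± 2.85, adjusted p 0.00774). It was left out of the closing checks. The MtN3-like gene (Os03g0347500) belongs to a family of sugar transporters and read 3.83, 4.36 and 5.45 (4.55 ± 0.83). The seed coat protein SC24 (Os12g0170800) was at 5.0 ± 0.75 and a peptidase A1 (Os10g0537800) at 4.33 ± 0.78. All of these genes except Os12g0555500 had an adjusted p of 0.000385 or less.

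The haem peroxidase gene Os01g0326300 had the highest mean log2 ratio measured, 7.0, and was chosen after its values were seen. On none of the arrays did its control signal stand well above background, and its induction was at least 68.6-fold (adjusted p 1.24e-05). The largest bound among upregulated genes belonged to an oxalate oxidase or germin (Os03g0693900), which was induced at least 72.9-fold. Germins of this type make hydrogen peroxide from oxalate. A neighbouring germin (Os03g0693800) read 4.36, 6.73 and 6.24 (5.78 ± 1.25), with the control channel well above background on 2 of the 3 arrays. Its call ended with the methods' t-test (adjusted p 0.0512). Of the 4 loci listed for oxalate oxidase, 3 were upregulated. The other pair, which the tables do not annotate, read -0.54, -0.44 and -0.58 (Os03g0693700, not called) and 0.54, 7.21 and 4.50 (Os03g0694000, 4.08 ± 3.35). The call of Os03g0694000 was lost without replicate 2 (2.52) or replicate 3 (3.88), with the 24 h arrays alone and with the methods' t-test. Cross-hybridisation between the germin probes was not tested. The signal filter keeps genes bright in either channel, and a gene seen only under Hg had to differ. At 24 h the 3 upregulated loci passed it through their Hg signals alone, with control signals of 7.09 to 43. Their count is therefore not evidence about the list.

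**Figure D1:**
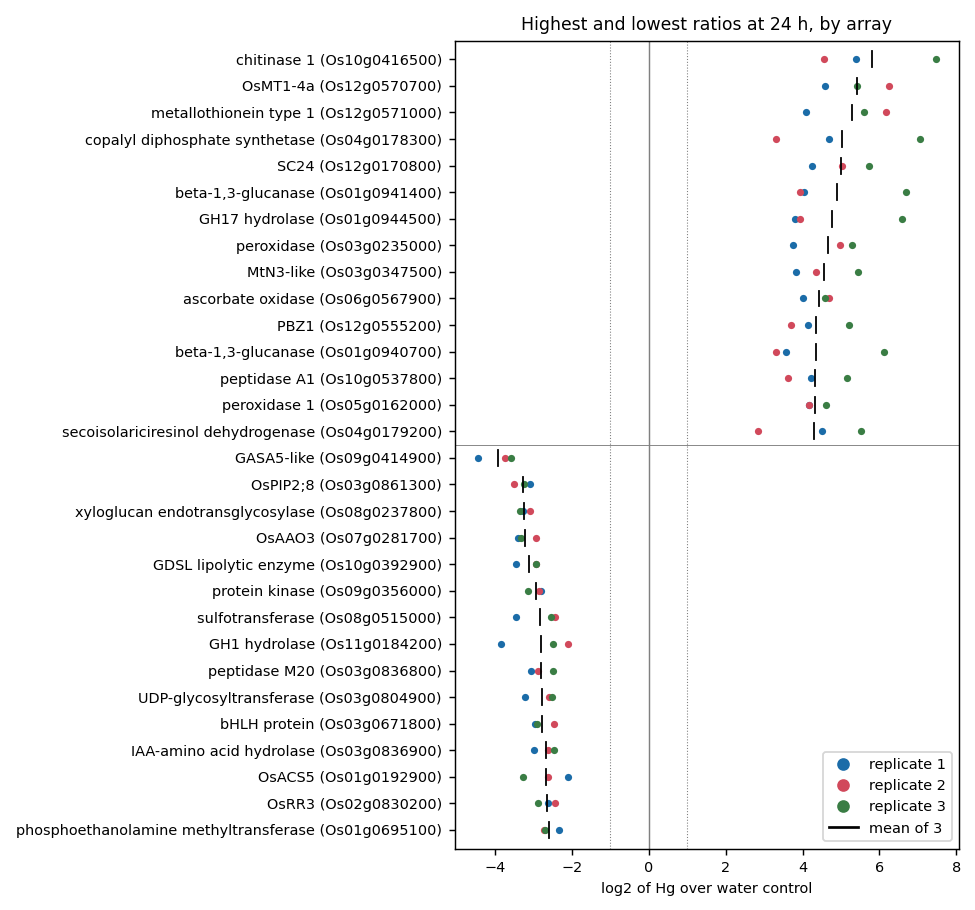
Log2 ratio of Hg over water control at 24 h (x axis) for the 15 genes with the highest and the 15 with the lowest means among called genes with a named product, both channels well above background and the same sign on all 3 arrays. Points are the 3 arrays, black bars their means, and dotted lines mark 2-fold. Replicate 3 (green) is farthest to the right for most upregulated genes, while the downregulated genes lie between -4.46 and -2.1.

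Among downregulated genes with a named product and with both channels well above background, the lowest ratios were those of a gibberellin-regulated peptide gene, an aquaporin and a wall enzyme. The lowest of these was a GASA5-like gene (Os09g0414900), one of a family of small cysteine-rich proteins regulated by gibberellin, at -4.46, -3.75 and -3.59 (-3.94 ± 0.46, adjusted p 7.79e-05). The water channel OsPIP2;8 (Os03g0861300) read -3.09, -3.51 and -3.26 (-3.29 ± 0.21). A xyloglucan endotransglycosylase (Os08g0237800), which cuts and rejoins xyloglucan chains in the wall, read -3.28, -3.10 and -3.35 (-3.24 ± 0.13). All 3 arrays stood well below -2 for each of these genes.

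Other genes at the low end were enzymes of varied kinds. A G-D-S-L lipolytic enzyme (Os10g0392900) had a mean of -3.12, a sulfotransferase (Os08g0515000) -2.83, a glycoside hydrolase of family 1 (Os11g0184200) -2.82, a peptidase M20 (Os03g0836800) -2.82 and a UDP-glycosyltransferase (Os03g0804900) -2.78. Phosphoethanolamine methyltransferase (Os01g0695100), which supplies choline for membrane lipids, read -2.35, -2.73 and -2.70 (-2.59 ± 0.21). A bHLH protein (Os03g0671800) was at -2.78 ± 0.28 and a protein kinase (Os09g0356000) at -2.93 ± 0.18. On replicate 1 the family 1 hydrolase was at -3.86 against -2.11 and -2.49 on the others.

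The metallothioneins named OsMT1-4 and OsMT1-2 were upregulated. By description OsMT1-4b and OsMT1-4c are of type 1, as is OsMT1-1a, which was not called. The list of 11 genes was measured in full, and 6 were upregulated and none downregulated, with a median log2 ratio of 2.25 against -0.06 for all genes. OsMT1-4c (Os12g0568200) read 2.67, 3.81 and 3.75 (3.41 ± 0.64), and OsMT1-4b (Os12g0568500) read 2.01, 2.83 and 2.94 (2.59 ± 0.51). OsMT1-2b (Os01g0974200) read 2.00, 3.18 and 3.65 (2.94 ± 0.85), OsMT1-2a (Os01g0149800) 2.18, 3.23 and 2.99 (2.80 ± 0.55), and OsMT1-2c (Os05g0111300) 1.67, 2.48 and 2.60 (2.25 ± 0.50). Together with OsMT1-4a, every one of the 6 was lowest on replicate 1.

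The 5 other metallothioneins did not pass the call. OsMT1-3b (Os05g0202800) read 1.31, 0.89 and 0.17, with a mean of 0.79, and passed the call without replicate 3 at 1.1. OsMT-II-1a (Os10g0542100), a class II zinc metallothionein by its description, had a mean of 0.64. OsMT1-1a (Os11g0704500), OsMT1-3a (Os01g0200700) and OsMT1-1b (Os03g0288000) were at -0.06, -0.33 and -0.46. The OsMT1-4 genes lie close together on chromosome 12, and cross-hybridisation between their probes was not tested. A further probe of OsMT1-2a read 1.13 where the probe used read 2.80, and the 7 other probes of OsMT1-2c read 3.15 to 3.22 where the probe used read 2.25. With the methods' t-test, OsMT1-2b (adjusted p 0.0633) and OsMT1-2c (0.0523) lost their calls.

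Against the short-term exposure, 2007 of all genes (9.19%) were higher at 24 h and 2211 (10.1%) were lower by the test of the difference. All 6 induced metallothioneins were among the higher ones. OsMT1-4b, for example, was at -0.84 at 1 to 3 h and 2.59 at 24 h, a difference of 3.44 (limma, adjusted p 0.000326). Of the 6, only OsMT1-4a had a short-term mean above 1, at 2.04. The slides of the 2 exposures were different ones, so slide and exposure cannot be told apart in any such difference.

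**Figure D2:**
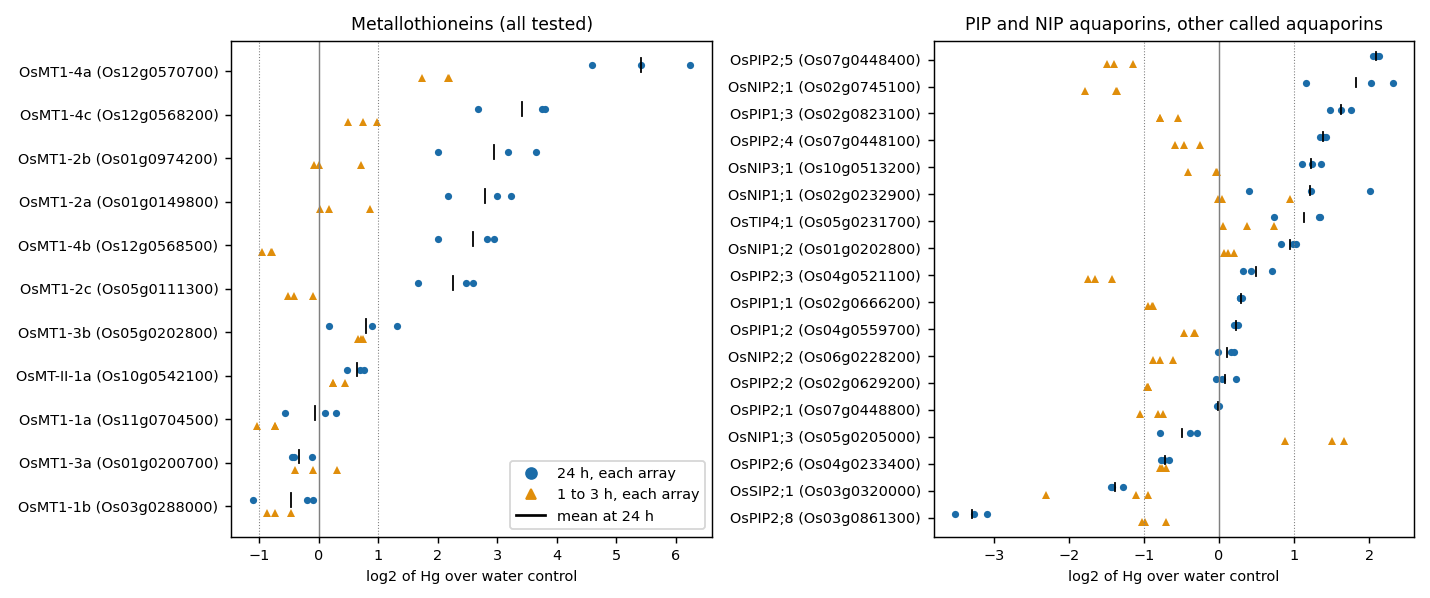
Log2 ratio of Hg over water control (x axis) for the 11 metallothioneins (left) and the tested PIP and NIP aquaporins with OsTIP4;1 and OsSIP2;1 (right), with the 24 h arrays as circles, the 1 to 3 h arrays as triangles and the 24 h mean as a bar. The 6 induced metallothioneins lie at 1.67 or above on every 24 h array, and OsPIP2;5, OsPIP1;3, OsPIP2;4 and OsNIP2;1 lie on opposite sides of 0 in the 2 exposures.

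Aquaporins moved in both directions. Of the PIP subfamily in the plasma membrane, 10 of 11 genes were tested, 3 were upregulated and 1, OsPIP2;8, was downregulated. OsPIP2;5 (Os07g0448400) read 2.1, 2.13 and 2.05 (2.09 ± 0.04, adjusted p 5.53e-05), OsPIP1;3 (Os02g0823100) 1.48, 1.63 and 1.76 (1.62 ± 0.14), and OsPIP2;4 (Os07g0448100) 1.40, 1.35 and 1.42 (1.39 ± 0.04). The arrays differed little for any of them. At 1 to 3 h these 3 upregulated genes had means of -1.35, -0.70 and -0.44. The 6 other PIP genes were not called and lay between -0.72 at OsPIP2;6 (Os04g0233400) and 0.49 at OsPIP2;3 (Os04g0521100). Between them were OsPIP2;1 (Os07g0448800) at -0.02, OsPIP2;2 (Os02g0629200) at 0.08, OsPIP1;2 (Os04g0559700) at 0.23 and OsPIP1;1 (Os02g0666200) at 0.29.

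Of the NIP subfamily, 7 of 10 genes were on the array, 6 were tested and 3 were upregulated. OsNIP2;1 (Os02g0745100), the silicon uptake channel of rice roots, read 1.16, 2.02 and 2.31 (1.83 ± 0.60), compared with -1.51 at 1 to 3 h. OsNIP3;1 (Os10g0513200), known for boron transport, was at 1.23 ± 0.12. OsNIP1;1 (Os02g0232900) read 1.22, 0.40 and 2.01, and its call was lost without replicate 1 or replicate 3 and with normexp background correction, at 0.68. The NIP genes not called were OsNIP1;2 (Os01g0202800) at 0.94, which passed the call at 1.00 with arrays centred on their median, OsNIP2;2 (Os06g0228200) at 0.11, and OsNIP1;3 (Os05g0205000) at -0.49 after 1.35 at 1 to 3 h. Among the 7 tonoplast TIP genes tested, OsTIP4;1 (Os05g0231700) was upregulated at 1.13 ± 0.35. Of the 2 SIP genes, OsSIP2;1 (Os03g0320000) was downregulated at -1.38 ± 0.08, or -0.81 with normexp, which ended that call.

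Transporters of copper, zinc and iron showed a mixed pattern. Of the 5 copper transporter (Ctr) family genes on the array, 3 were tested and 2 were upregulated. Copper transporter 1 (Os01g0770700), which takes up copper, read 2.04, 2.63 and 2.46 (2.37 ± 0.30, adjusted p 8.21e-05). A copper-translocating P-type ATPase (Os04g0556000), a pump that moves copper across membranes, read 0.95, 1.60 and 1.75 (1.43 ± 0.43). The heavy metal translocating P-type ATPase Os07g0232900 had a mean of 0.69 and was not called.

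Of 14 ZIP genes tested, 3 were upregulated and 1 was downregulated. ZIP proteins carry zinc, iron and other divalent metals into the cytosol. The ZIP family gene Os07g0232800 read 2.29, 2.07 and 2.2 (2.19 ± 0.11), ZIP1 (Os05g0472700) 1.05, 1.43 and 1.61 (1.36 ± 0.28), and an Fe(II) transport protein (Os03g0667300) 1.07, 1.18 and 1.13 (1.13 ± 0.05). The last fell to 0.98 without background correction, which ended its call. Iron-regulated transporter 1 (Os03g0667500) was at 0.42 and was not called, and a zinc transporter 2 precursor (Os01g0972200) read -2.41, -1.31 and -1.73 (-1.82 ± 0.56). An oligopeptide transporter superfamily gene (Os02g0650300) was downregulated on all arrays at -2.34, -2.61 and -2.44. The 10 Nramp genes tested, of a family that carries manganese and iron, lay between -0.87 and 0.79.

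Alkali cation and nitrogen carriers moved in both directions. Of the 7 Trk genes only 2 passed the signal filter, and both were upregulated. The filter keeps genes bright in either channel, and a gene seen only under Hg had to differ. This count is therefore not evidence about the family. A cation transporter (Os04g0607600) was induced at least 26.4-fold, with a control signal at background level on every array. An HKT-type sodium transporter (Os06g0701700) read 1.14, 2.2 and 2.00 (1.78 ± 0.56). Of 18 KUP potassium transporters tested, 5 were upregulated and none was downregulated, among them Os03g0575200 at 1.60 ± 0.17. Of 7 ammonium transporter genes tested, 1 was upregulated and 1 downregulated (14.3% each), with a median of -0.34. Os02g0620600 read 1.59, 1.89 and 2.59 (2.02 ± 0.52), and Os02g0550800 read -1.44, -1.22 and -0.82 (-1.16 ± 0.31), or -0.58 with normexp, which ended its call. A cation efflux protein (Os01g0130000) read 1.22, 1.63 and 1.76. A urea active transporter-like gene (Os10g0580400) read -2.88, -2.18 and -2.24 (-2.43 ± 0.39).

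Of 88 ABC transporters tested, which export many compounds with energy from ATP, 12 (13.6%) were upregulated and 1 (1.14%) downregulated. The shares of all genes were 8.99% and 6.03%. Os05g0120200 was induced at least 32.5-fold, and Os01g0836600 read 2.34, 3.15 and 3.76 (3.08 ± 0.72). Of 27 subunits of F-type and V-type ATPases tested, 3 were downregulated, none was upregulated and 5 had a mean above 0. The vacuolar proton-ATPase subunit Os03g0251500 was at -1.61 ± 0.15. Of 55 mitochondrial carriers tested, 1 (1.82%) was upregulated and 2 (3.64%) were downregulated, both below the shares of all genes.

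Diterpenoid phytoalexin genes were induced, with a wide spread between arrays. Rice makes momilactones and related antimicrobial diterpenoids from copalyl diphosphates, and several of the genes lie together on chromosome 4. Of 10 loci listed from textbook knowledge, 9 were tested and all 9 were upregulated, with a median of 4.29. Of these, 6 had a product description in the study's tables, which include its list of Hg-responsive genes. The signal filter keeps genes bright in either channel, and a gene seen only under Hg had to differ. At 24 h, Os02g0570400, Os04g0179700 and Os12g0491800 passed it through their Hg signals alone, with control signals of 4.49 to 84.3. The count of 9 is therefore only in part evidence about the list. Copalyl diphosphate synthetase (Os04g0178300), which makes the precursor, read 4.70, 3.32 and 7.06 (5.03 ± 1.89, adjusted p 0.00177). A dehydrogenase of the chromosome 4 cluster (Os04g0179200), described as secoisolariciresinol dehydrogenase, read 4.51, 2.83 and 5.52 (4.29 ± 1.36). Both genes were lowest on replicate 2 and highest on replicate 3. The 4 named genes of chromosome 4 lost their calls with the methods' t-test, with adjusted p from 0.0521 at Os04g0180400 to 0.22 at Os04g0179700.

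The other members of the cluster showed the same order of arrays. A cytochrome P450 described as CYP99A1 (Os04g0180400) read 3.94, 3.59 and 5.40 (4.31 ± 0.96), with the control well above background on 2 arrays. A terpene synthase (Os04g0179700) read 2.29, 0.99 and 5.90 (3.06 ± 2.55, adjusted p 0.0288). This last value rested on replicate 3: without it the mean was 1.64, and the call was lost without replicate 1 (adjusted p 0.0648), with the replicate number as a block (0.0513) and with the 24 h arrays alone (0.0544). A terpene synthase-like gene on chromosome 11 (Os11g0474800) read 4.02, 3.60 and 4.94 (4.19 ± 0.69).

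β-1,3-Glucanases included some of the highest ratios and varied widely between arrays. Of 51 tested genes of glycoside hydrolase family 17, which cut β-1,3-glucans such as callose, 13 were upregulated and 2 downregulated. The β-1,3-glucanase Os01g0941400 read 4.04, 3.93 and 6.70 (4.89 ± 1.57), the family 17 gene Os01g0944500 3.80, 3.92 and 6.58 (4.77 ± 1.57), and the β-1,3-glucanase Os01g0940700 3.58, 3.32 and 6.13 (4.34 ± 1.55). These 3 are neighbours with nearly the same values on each array, and cross-hybridisation between them was not tested. A β-1,3-glucanase-like gene (Os07g0539900) read 3.94, 2.3 and 6.41 (4.22 ± 2.07). These 4 genes lost their calls with the methods' t-test, with adjusted p from 0.0698 at Os01g0941400 to 0.113 at Os07g0539900. In the opposite direction, the β-1,3-glucanase Os01g0941200 read -1.88, -1.77 and -2.41 (-2.02 ± 0.34).

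Of 13 tested genes of family 18, which includes chitinases, 6 were upregulated and 1 was downregulated, whereas with normexp correction the count of upregulated genes was 2. The acidic class III chitinase OsChib3a (Os01g0660200) read 3.30, 2.46 and 3.95 (3.24 ± 0.75).

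Heat shock genes were less uniform and depended on the probe. Small heat shock proteins keep damaged proteins from aggregating, and HSP101 dissolves aggregates. Oshsp18.0 (Os03g0267000) read 6.39, 6.51 and 7.41 (6.77 ± 0.56, adjusted p 5.21e-05), with the control well above background on 1 of the 3 arrays. Oshsp17.3 (Os03g0266900) read 3.10, 3.79 and 3.36 (3.42 ± 0.35), below its value of 6.04 at 1 to 3 h. A class CIII small heat stress protein (Os02g0782500) was at 0.59 and a low molecular weight heat shock protein (Os03g0267200) at 0.46, and neither was called.

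Probes of 2 heat shock loci disagreed. For the Hsp20 domain gene Os03g0266300 the probe used, which by its name lies in the 5′ untranslated and coding part, read 0.66, whereas 8 probes in the coding and 3′ part read 2.82 to 3.07. For HSP101 (Os05g0519700) the probe used had values on 2 arrays only, with a mean of 0.72, whereas the other 3 probes read 2.13 to 2.51. With the mean of all probes both loci passed the call, at 2.74 and 2.02, so which level holds for these genes depends on the probe. Of 69 named loci with several probes, 8 had probe means more than 1 log2 unit apart.

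Of the aromatic amino acid genes, most had 24 h ratios within 2-fold of the control. The shikimate pathway leads through DAHP synthase to chorismate, from which tryptophan and phenylalanine are made. The 10 genes below were chosen for PCR by the study from these arrays, so their direction is not independent evidence. Primer pairs of 3 of them are shown because they mark the transcripts that the study followed by PCR. They are given 5′ to 3′ from the study's primer list, all in lower case since no base is singled out.
Indole-3-glycerol phosphate synthase (Os09g0255400, chromosome 9), forward: tacgtgcagaatgctggtgt
Indole-3-glycerol phosphate synthase (Os09g0255400, chromosome 9), reverse: cagtaactaccgcgcgtatc
DAHP synthase (Os03g0389700, chromosome 3), forward: gccacccttcggtgtctgaa
DAHP synthase (Os03g0389700, chromosome 3), reverse: ccaccaacaaatggaataggcg
Tryptophan synthase alpha chain (Os07g0182100, chromosome 7), forward: gaagagctagccaagagcct
Tryptophan synthase alpha chain (Os07g0182100, chromosome 7), reverse: acagacaacagtaaccccga

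Of the 10 genes, 2 were upregulated, none was downregulated and the median was 0.20. Indole-3-glycerol phosphate synthase, which closes the indole ring of tryptophan, read 1.67, 1.90 and 3.59 (2.39 ± 1.05, adjusted p 0.00151), with the control well above background on 2 arrays. Its call ended with normexp correction, at 0.87. DAHP synthase, the entry enzyme of the pathway, read 0.89, 1.06 and 1.1 (1.02 ± 0.11) and was close enough to 2-fold that leaving out replicate 2 or replicate 3 ended the call. The alpha chain of tryptophan synthase read -0.02, 0.06 and -0.01 (0.01 ± 0.05), and the beta chain (Os08g0135900) -0.28, -0.15 and -0.26 (-0.23 ± 0.07). The 6 others were not called. Of the steps before chorismate, DAHP synthetase 1 (Os07g0622200) was at 0.29, 3-dehydroquinate synthase (Os09g0539100) at 0.11, shikimate kinase (Os02g0749300) at 0.04 and EPSP synthase (Os06g0133900) at -0.03. Of the branches after it, anthranilate synthase OsASA2 (Os03g0264400) was at 0.35 and the prephenate dehydratase gene Os04g0406600 at 0.50.

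All 10 genes had lower ratios at 24 h than at 1 to 3 h by the test of the difference. Tryptophan synthase alpha, for instance, was at 2.89 at the short exposure, a difference of -2.88. Of 7 loci listed for phenylalanine ammonia-lyase, the entry to phenylpropanoids, 2 were upregulated at 24 h and none downregulated, with a median of 0.19. The means ran from -0.21 to 2.08. The brightest locus, Os04g0518100, at signals of 129000 to 157000, read -0.06, -0.11 and -0.02 and was not called. Against 1 to 3 h, 4 of the 7 had lower ratios at 24 h by that test, 3 of them with a product description. Lyase 2 (Os04g0518400) read 2.34, 1.08 and 2.82 (2.08 ± 0.89) after 3.84 at 1 to 3 h, and Os05g0427400 read 0.88, 1.04 and 1.12 (1.01 ± 0.12) after 2.64. The second call ended with normexp at 0.98 and without replicate 2 or replicate 3. The third gene, Os02g0627100, read 0.72, 0.90 and 1.20 (0.94 ± 0.24) after 2.48 and was not called, but passed the call with arrays centred on their median (1.01) and without replicate 1 (1.05). The α-tubulin gene Os03g0726100, the PCR reference of the study, read -0.25, -0.70 and -0.47 (-0.47 ± 0.23, adjusted p 0.0133), which is under the 2-fold threshold. One alternative oxidase (Os04g0600300), a mitochondrial enzyme that bypasses part of respiration, read 0.97, 1.64 and 1.72 (1.44 ± 0.41) after 4.91 at 1 to 3 h.

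**Figure D3:**
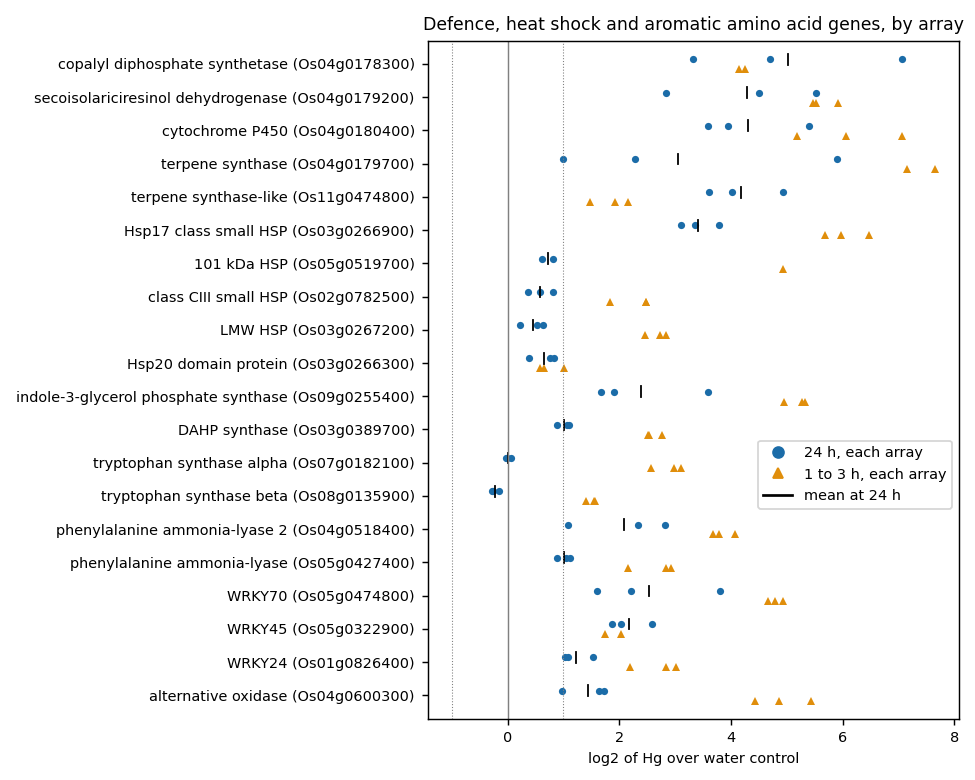
Log2 ratio of Hg over water control (x axis) for genes of diterpenoid synthesis, heat shock, aromatic amino acid metabolism, WRKY factors and alternative oxidase, with the 24 h arrays as circles, the 1 to 3 h arrays as triangles and the 24 h mean as a bar. Both tryptophan synthase genes lie near 0 on the 24 h arrays and above 1 on the 1 to 3 h arrays, and the terpene synthase Os04g0179700 spans 0.99 to 5.90 at 24 h.

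Of 15 tested response regulators of cytokinin signaling, 7 were downregulated and none was upregulated. The 8 others were not called, lay between -0.90 and 0.99, and 4 of them had a mean above 0. Type-A response regulators are induced by cytokinin and damp its signal. Over all 24 signaling genes tested the median was -0.33, and no gene outside the response regulators was called. OsRR3 (Os02g0830200) read -2.63, -2.44 and -2.89 (-2.65 ± 0.22, adjusted p 7.25e-05), OsRR1 (Os04g0442300) -1.59, -1.98 and -2.14 (-1.90 ± 0.29), and OsRR4 (Os01g0952500) -1.69, -1.56 and -1.90 (-1.72 ± 0.17). OsRR11 (Os02g0631700) was at least 6.64-fold lower, with an Hg signal at background level on every array, and its call ended with normexp, at -0.95.

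OsRR6 (Os04g0673300), OsRR10 (Os12g0139400) and OsRR9 (Os11g0143300) completed the 7 at -1.42, -1.22 and -1.18, and were named after their values were seen. OsRR9 lost its call with normexp, at -0.92, and without replicate 3, at -0.99. With arrays centred on their median, 2 genes of the list passed the call upward. Cytokinin dehydrogenases break cytokinin down, and here OsCKX2 (Os01g0197600) read -3.48, -2.71 and -2.75 (-2.98 ± 0.43) and OsCKX1 (Os01g0187600) -2.06, -2.08 and -1.95 (-2.03 ± 0.07), whereas OsCKX11 (Os08g0460600) read 1.35, 1.56 and 1.91 (1.60 ± 0.29).

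Ethylene synthesis genes were split. ACC synthase makes the precursor ACC and ACC oxidase turns it into ethylene. Of 10 genes tested, 4 were upregulated, all of them ACC oxidases, and 2 were downregulated. OsACO5 (Os05g0149400) read 1.84, 3.88 and 4.58 (3.43 ± 1.42), and OsACO3 (Os09g0451000) 2.34, 1.84 and 2.27 (2.15 ± 0.27). OsACO2 (Os02g0771600) was induced at least 8.28-fold, or 0.97 on the log2 scale without background correction. OsACO6 (Os05g0149300) was induced at least 4.94-fold, and its call ended with normexp at 0.73. OsACS5 (Os01g0192900) read -2.1, -2.63 and -3.29 (-2.67 ± 0.59) and OsACO7 (Os01g0580500) -2.19, -2.32 and -2.50 (-2.34 ± 0.16). The 14 ethylene signaling genes tested lay between -0.53 and 0.53, within 2-fold of the control.

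Gibberellin deactivation was on the upregulated side, with 4 of 8 tested genes called and a median of 0.92, but 2 of 8 by count with normexp correction. GA2ox enzymes inactivate gibberellins. GA2ox5 (Os07g0103500) was induced at least 6.84-fold but was at 0.87 with normexp, GA2ox3 (Os01g0757200) read 1.31, 1.53 and 1.06 (1.30 ± 0.24), and GA2ox7 (Os05g0560900) 1.12, 1.32 and 1.29 (1.24 ± 0.10). EUI (Os05g0482400), which deactivates gibberellins by another reaction, was at 1.05 ± 0.30, with its call lost without replicate 2 and with normexp. In signaling, OsGAMYBL2 (Os03g0578900) was at 1.78, with the control well above background on 1 array, and its call ended with normexp at 0.51. The receptor GID1 (Os05g0407500) was at 1.07 ± 0.06, or 0.86 with the mean of all probes. The 6 gibberellin biosynthesis genes tested lay between -0.67 and 0.88.

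Jasmonate synthesis gave 4 upregulated genes of 18 tested and none downregulated. OsLOX2;3 (Os08g0509100) and OsAOS1 (Os03g0225900), which act early in the pathway, read 2.77, 2.13 and 2.49 (2.46 ± 0.32) and 2.04, 2.73 and 2.93 (2.56 ± 0.47). The control of OsAOS1 was well above background on 1 array, its 4 probes read 2.52 to 3.77, and its ratio was 0.88 without background correction. The lipase gene OsDAD1;2 (Os08g0143600) was induced at least 7.42-fold, or 0.96 on the log2 scale without background correction. OsJMT4 (Os06g0323100), a methyltransferase by its description, read 2.68, 3.17 and 4.98 (3.61 ± 1.21), with the control well above background on 2 arrays. OsJAZ7 (Os09g0439200), from the family of jasmonate repressors, was the 1 called gene of 10 in signaling, at 1.01 ± 0.17, and its call was lost without replicate 3.

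For abscisic acid, 2 synthesis genes were called upward and 2 downward among 9 tested (22.2% each). OsNCED2 (Os12g0617400), of the family that cleaves carotenoids in the first committed step, read 0.83, 1.68 and 1.75 (1.42 ± 0.52), and its call ended with normexp at 0.64. OsNCED3 (Os07g0154100) had a mean of 1.01, but its Hg channel stood well above background on 1 array and its control on none, so no fold is given. Its call was lost without replicate 3 (0.88) and with normexp (0.23). OsAAO3 (Os07g0281700), an aldehyde oxidase of the last step, read -3.40, -2.93 and -3.33 (-3.22 ± 0.26). OsABA8OX2 (Os08g0472800), which degrades abscisic acid, was at -1.38, or -0.81 with normexp. Of 29 signaling genes, 1 (3.45%) was called in each direction, below the shares of all genes. OsbZIP10 (Os01g0859300) was upregulated at 2.12 ± 0.48, or 0.86 without background correction, and the phosphatase OsPP2C5 (Os05g0457200) was downregulated at -1.66 ± 0.63.

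Auxin genes moved both ways and few were called. Aux/IAA proteins repress auxin responses. Of 58 signaling genes tested, 3 (5.17%) were upregulated and 5 (8.62%) downregulated, near the shares of all genes, 8.99% and 6.03%. OsIAA16 (Os05g0186900) read 1.74, 2.36 and 2.09 (2.07 ± 0.31) and OsIAA22 (Os06g0355300) 1.13, 1.33 and 1.42 (1.30 ± 0.15), the latter at 0.96 with normexp. OsIAA14 (Os03g0797800) read -0.87, -2.64 and -2.87 (-2.13 ± 1.1) and OsIAA26 (Os09g0527700) -0.64, -2.15 and -2.11 (-1.63 ± 0.86), so replicate 1 was nearest to 0 for both. Without background correction they were at -0.95 and -0.97, which ended both calls. OsYUCCA7 (Os04g0128900), of the auxin synthesis family but listed by the study under signaling, was at -1.74 ± 0.38, and IAA-amino acid hydrolase 1 (Os03g0836900), which frees auxin from conjugates, at -2.69 ± 0.26.

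**Figure D4:**
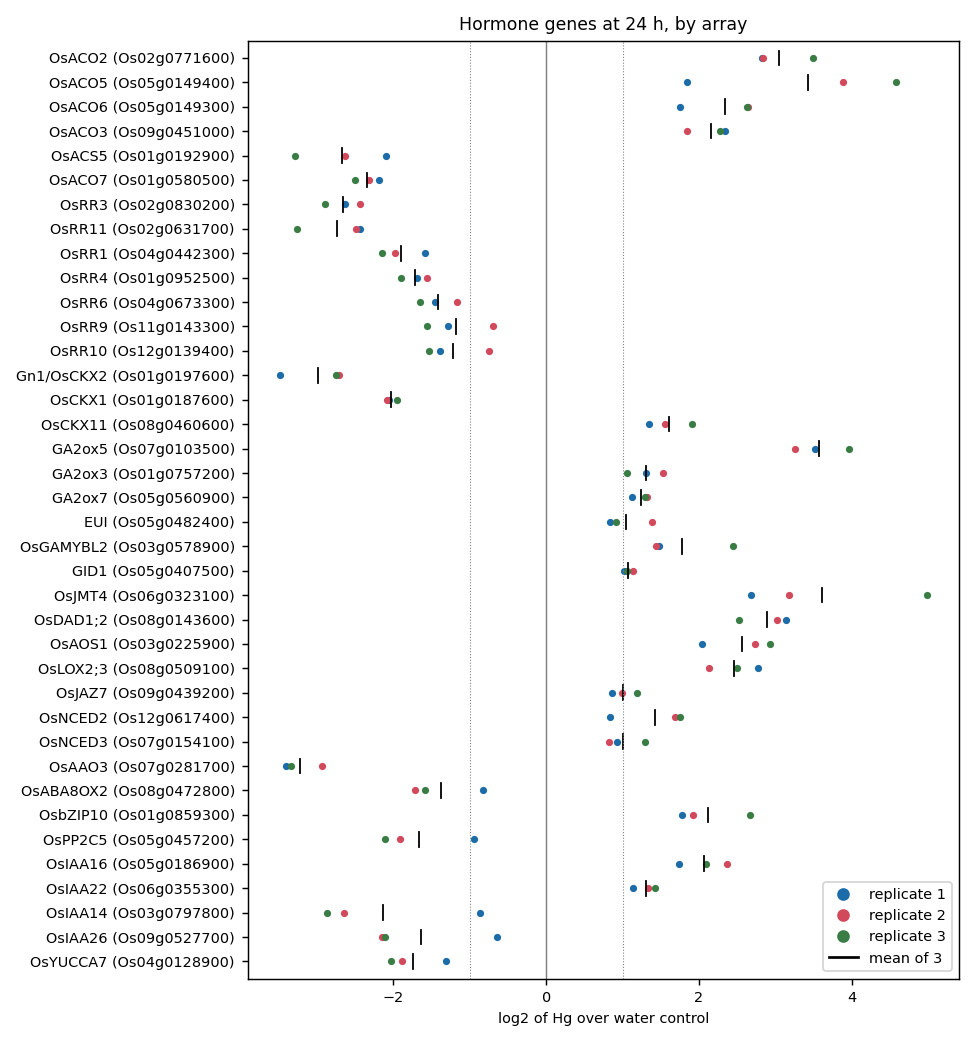
Log2 ratio of Hg over water control at 24 h (x axis) for the named hormone genes, grouped from top to bottom by ethylene, cytokinin, gibberellin, jasmonate, abscisic acid and auxin. Points are the 3 arrays and bars their means. The 7 response regulators (OsRR) lie below 0 on every array, and OsIAA14 and OsIAA26 show replicate 1 (blue) apart from the other arrays.

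Cell wall synthesis genes were downregulated more often than upregulated. UDP-glucose pyrophosphorylases supply the sugar nucleotide for wall polymers, and both tested genes were downregulated. Os02g0117700 read -1.87, -1.93 and -2.1 (-1.97 ± 0.12) and Os09g0553200 -0.90, -1.11 and -1.14 (-1.05 ± 0.13), the latter at -0.93 with normexp and -0.98 with arrays centred on their median. Of 31 cellulose and mannan synthase-like genes, 6 were downregulated and none upregulated. Cellulose synthase-9 (Os10g0578200) read -2.16, -2.11 and -2.60 (-2.29 ± 0.27). A xyloglucan xylosyltransferase (Os12g0149300) read -2.06, -1.97 and -2.28 (-2.1 ± 0.16).

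Of 15 arabinogalactan proteins tested, 5 were downregulated and none upregulated, or 3 downregulated with normexp and 1 upregulated with arrays centred on their median. The fasciclin domain genes Os02g0726000 and Os05g0163300 were at -2.22 ± 0.39 and -1.77 ± 0.25. The first was at -3.70 on a further probe and at -0.89 without background correction, and the second was at -0.98 with normexp, and both calls ended there. Among 21 xyloglucan endotransglycosylases or hydrolases, 7 were downregulated and 1 upregulated, and Os04g0604900 read -3.38, -1.92 and -1.88 (-2.39 ± 0.85). Wall-loosening enzymes were split, and of 37 expansins tested 8 (21.6%) were upregulated and 7 (18.9%) downregulated.

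The expansin OsEXPA18 (Os03g0155900) read 2.36, 3.25 and 2.17 (2.59 ± 0.58), OsEXPA19 (Os03g0428700) -2.46, -1.70 and -2.40 (-2.18 ± 0.42), and a further expansin (Os02g0268600) -3.67, -1.76 and -1.64 (-2.35 ± 1.14). Of 17 endoglucanases of family 9, 4 were upregulated and 1 downregulated. Endoglucanase 1 (Os02g0123700) read 2.47, 2.88 and 2.86 (2.74 ± 0.23) and a cellulase (Os01g0220100) 2.25, 2.95 and 3.28 (2.83 ± 0.53), compared with -1.06 and -0.57 at 1 to 3 h. Of pectin genes, the family 28 gene Os01g0623600 was at 2.58 ± 0.36 and the pectinesterase Os05g0361500 at 2.13 ± 0.84, whereas the pectinesterase Os01g0634600 was at least 7.55-fold lower, or -0.88 on the log2 scale with normexp.

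Among receptor-like kinases, which sense signals at the cell surface, the lectin and DUF26 groups had 34.2% and 46.4% of their tested genes called upward. Such shares were not particular to them. The smaller CrRLK1L-1 and LRK10L-2 groups, with 11 and 18 genes tested, had 36.4% and 33.3%, while several other small groups had none. Of 65 L-type lectin genes on the array 38 passed the signal filter, and 13 were upregulated and none downregulated, with a median of 0.88. Of 49 DUF26 genes 28 passed, and 13 were upregulated and 1 downregulated, with a median of 0.86. Because the filter keeps genes bright in either channel, a member seen only under Hg had to differ. The DUF26 count fell to 5 with normexp, and the lectin count to 10.

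Os07g0129800 read 3.66, 2.98 and 4.88 (3.84 ± 0.96), and the lectin gene Os04g0584100 2.96, 3.36 and 4.47 (3.60 ± 0.78), both with the control well above background on 2 arrays. Lectin-like receptor kinase 7;2 (Os07g0130800) was induced at least 5.91-fold, or 0.89 on the log2 scale with normexp. Of the DUF26 group, Os07g0537200 was induced at least 6.59-fold, or 0.91 on the log2 scale without background correction, and Os07g0538200 read 1.83, 2.39 and 2.57 (2.26 ± 0.39). The leucine-rich repeat group, with 189 genes tested, gave 28 (14.8%) upregulated and 15 (7.94%) downregulated genes, against 8.99% and 6.03% of all genes.

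Of 30 calmodulin-like genes, which are calcium sensors, 5 (16.7%, against 8.99% of all genes) were upregulated and 2 downregulated. OsCML29 (Os06g0691600) read 2.43, 3.80 and 4.12 (3.45 ± 0.90) and OsCML24 (Os07g0681400) 2.91, 2.11 and 3.29 (2.77 ± 0.60), each with the control well above background on 2 arrays. No calcium-dependent protein kinase of 23 tested was upregulated and 1 (4.35%) was downregulated. Of 16 MAP kinases the single called gene was MPK12 (Os05g0576800), at -1.63 ± 0.20.

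Transcription factor genes of the AP2/ERF and AS2 families, which include regulators of defence and development, had more genes called upward than downward. Most of their members were not called. The WRKY family was not counted as a whole. Of 8 WRKY genes listed from textbook knowledge, 5 were upregulated and none downregulated, with means from 0.34 to 3.72. Among them 4 were annotated, and 3 of these were upregulated. WRKY45 (Os05g0322900), which acts in defence priming, read 2.04, 1.87 and 2.59 (2.17 ± 0.38), although 1 of its 4 probes read 0.60. WRKY70 (Os05g0474800) was induced at least 4.18-fold, or 0.52 on the log2 scale with normexp, and WRKY24 (Os01g0826400) read 1.03, 1.09 and 1.53 (1.22 ± 0.27).

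Of 103 AP2/ERF genes tested, 14 (13.6%, against 8.99% of all genes) were upregulated and 6 downregulated. AP2/ERF-118 (Os07g0410300) read 2.22, 2.76 and 2.95 (2.65 ± 0.38), AP2/ERF-54 (Os03g0341000) 2.36, 2.07 and 2.32 (2.25 ± 0.16), AP2/ERF-125 (Os08g0173700) -1.44, -2.19 and -2.47 (-2.03 ± 0.53) and AP2/ERF-156 (Os11g0129700) -2.2, -1.70 and -1.78 (-1.89 ± 0.27). Of 21 AS2 genes, 5 were upregulated and 1 downregulated. LOB domain protein 11 (Os03g0287400) was induced at least 5.71-fold, or 0.94 on the log2 scale with normexp.

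**Figure D5:**
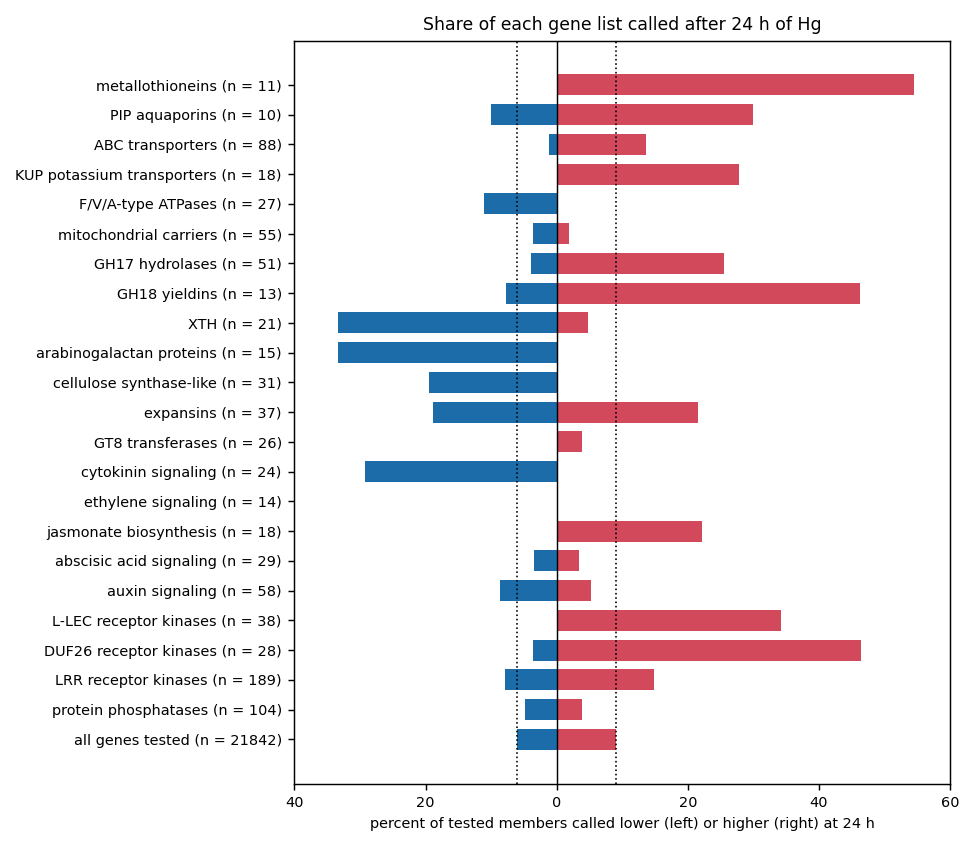
Percent of the tested members of each gene list called lower (bars to the left) or higher (bars to the right) at 24 h, with the number tested after each name. Dotted lines mark the shares over all genes tested, 8.99% higher and 6.03% lower. Metallothioneins reach 54.5% higher, GH18 and DUF26 genes 46.2% and 46.4%, while XTH genes and arabinogalactan proteins reach 33.3% lower and ethylene signaling shows no bar.

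The split of calls depended on background correction: 59.9% of the called genes were upregulated, compared with 72.5% after normexp and loess and 72.4% after loess alone.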

How the data were processed

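Dual-channel Agilent rice arrays were scanned and extracted by the authors with Agilent Feature Extraction 10.7.1.1. The deposited intensity values (processed, median and background signals of Cy5 and Cy3) and the deposited log10 ratio were given for each spot, and the deposited value table held log2 ratios. From the processed signals, which the software had background-subtracted and dye-normalized, log2(Cy5/Cy3) was computed for each probe, outlier and control spots were left out, and probes under 100 in both channels throughout were dropped. The brightest probe stood for a locus. All 6 arrays were fitted in limma 3.58.1 (R 4.3.3) with a coefficient for each exposure, and p-values were Benjamini-Hochberg adjusted over 21842 genes. The software's own error and p-value columns were not used. A call needed an adjusted p under 0.05 and a mean log2 ratio of at least 1 in size. The fit was tested on simulated data. Normexp used median signals with an offset of 50.

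Gene names and lists came from the study's tables, of which those for cell wall, signaling and transcription factor genes were held in part. The members and lists were chosen with earlier results of these data known. Named were the 15 highest and the 15 lowest called genes with a named product and both channels well above background, up to 4 called genes per list and direction, members of lists of up to 12 loci where needed to describe a list whole, and α-tubulin. Alternatives were other ratios and background corrections, centring, filters, probe rules, blocks, the methods' t-test and leaving out each array. The slide of the 24 h arrays held no other exposure, so slide and exposure cannot be told apart.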

Additional observations from a re-analysis of the deposited data

Results flagged for a closer look

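The 24 h ratio differed from the 1 to 3 h ratio for 110 of the genes named above, by limma's test of the difference itself with at least 2-fold between the means. Values are differences in log2 ratio, 24 h minus 1 to 3 h, with different slides for each exposure. There were 3 arrays on each side except for Os04g0179700, OsASA2 and Os09g0539100, with 2 at 1 to 3 h, and HSP101, with 2 at 24 h and 1 at 1 to 3 h.

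Metallothioneins were higher at 24 h, by 5.39 at Os12g0571000, 3.44 at OsMT1-4b, 3.38 at OsMT1-4a, 2.73 at OsMT1-2b, 2.67 at OsMT1-4c, 2.60 at OsMT1-2c and 2.45 at OsMT1-2a. Aquaporins were higher by 3.44 at OsPIP2;5, 3.34 at OsNIP2;1, 2.32 at OsPIP1;3, 2.09 at OsPIP2;3, 1.83 at OsPIP2;4, 1.39 at OsNIP3;1, 1.2 at OsPIP1;1 and 1.03 at OsPIP2;2, and the difference was -2.38 at OsPIP2;8 and -1.84 at OsNIP1;3. Among copper and zinc carriers, the difference was 2.24 at copper transporter 1, 2.17 at the copper-translocating ATPase Os04g0556000, 2.1 at ZIP1, 1.53 at Os07g0232800, 1.15 at the Fe(II) transport protein Os03g0667300 and 1.12 at the heavy metal ATPase Os07g0232900. Among other carriers it was 2.98 at Os04g0607600, 2.29 at the ammonium transporter Os02g0620600, 2.23 at the HKT-type transporter, 1.74 at Os03g0575200, 1.66 at the cation efflux protein Os01g0130000 and 1.62 at the ABC transporter Os05g0120200. It was -1.08 at the oligopeptide transporter Os02g0650300, -1.30 at the urea transporter-like Os10g0580400 and -1.08 at the proton-ATPase subunit Os03g0251500.

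Of defence and redox genes, MtN3-like Os03g0347500 was higher at 24 h by 5.31, the haem peroxidase Os01g0326300 by 4.47, ascorbate oxidase by 3.99, peroxidase 1 by 3.22, SC24 by 2.56, chitinase 1 by 2.36 and the peroxidase Os03g0235000 by 2.18. Alternative oxidase had a difference of -3.47. The terpene synthase Os04g0179700 was at -4.35 and the cytochrome P450 Os04g0180400 at -1.79, whereas the terpene synthase-like Os11g0474800 was at 2.33. Over the 9 tested loci of the diterpenoid list, 4 were higher and 2 lower at 24 h by this test. Among the higher ones not named above was Os04g0178400 on chromosome 4, at 2.34. Of the 6 named heat shock genes 4 were lower at 24 h, with -2.63 at Oshsp17.3, -2.22 at Os03g0267200, -1.68 at Os02g0782500 and -4.23 at HSP101, whose probe read 0.72 at 24 h against 2.13 to 2.51 on the other 3 probes of the locus. The 10 aromatic genes were lower too, with -2.88 at tryptophan synthase alpha, -2.80 at indole-3-glycerol phosphate synthase, -1.73 at tryptophan synthase beta, -1.59 at DAHP synthase, -1.68 at shikimate kinase, -1.30 at Os04g0406600, -1.27 at EPSP synthase and at Os09g0539100, -1.22 at Os07g0622200 and -1.06 at OsASA2. Of phenylalanine ammonia-lyases it was -1.77 at lyase 2, -1.62 at Os05g0427400 and -1.54 at Os02g0627100. The largest difference of that list was -4.29 at Os02g0626600, from 4.48 at 1 to 3 h to 0.19 at 24 h. That locus has no product description and is not among the genes named above.

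Hormone genes differed in both directions. The difference was 1.66 at OsACO3, -1.50 at OsACO6, -1.51 at OsACO7 and -1.63 at OsACS5. It was -2.77 at OsRR11, -2.33 at OsRR6, -1.28 at OsRR3, -1.03 at OsRR1, -1.02 at OsRR4, -1.19 at OsCKX1 and 1.54 at OsCKX11. For gibberellin it was 3.39 at GA2ox5, 1.31 at GA2ox7 and -1.39 at GA2ox3, and for jasmonate 3.18 at OsJMT4, -2.61 at OsDAD1;2 and -1.28 at OsJAZ7. For abscisic acid it was -3.36 at OsNCED2, -3.01 at OsNCED3, -2.68 at OsPP2C5 and -1.64 at OsAAO3. For auxin it was 2.54 at OsIAA22, 2.14 at OsIAA16, -1.90 at OsIAA14, -1.21 at the hydrolase Os03g0836900 and -1.20 at OsYUCCA7.

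Of cell wall genes, endoglucanase 1 was higher at 24 h by 3.80, the cellulase Os01g0220100 by 3.39, Os01g0623600 by 2.05 and the pectinesterase Os05g0361500 by 1.58. The difference was -2.42 at the xyloglucan endotransglycosylase Os08g0237800, -2.18 at OsEXPA18, -1.98 at OsEXPA19, -1.94 at cellulose synthase-9, -1.33 at Os05g0163300, -1.30 at Os02g0117700 and -1.27 at Os12g0149300. Of calcium sensors it was 2.65 at OsCML24 and 1.80 at OsCML29, and of transcription factors -2.26 at WRKY70, -1.47 at WRKY24, -1.28 at AP2/ERF-54, -1.20 at AP2/ERF-156 and -1.08 at AP2/ERF-125. Among the remaining downregulated genes it was -1.69 at Os08g0515000, -1.37 at Os10g0392900, -1.35 at Os11g0184200, -1.34 at Os03g0804900, -1.26 at Os09g0356000 and -1.25 at Os03g0836800.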

How the results depend on the processing

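Over 174 of the genes named above, 2450 gene values kept their call, or the lack of one, under the alternatives. Of the others, 126 lost the call (57 of them with the methods' t-test) and 7 gained one. No value that was called in either setting changed sign. Sign changes of genes called in neither setting were not counted. With normexp and loess, 1402 genes were upregulated and 532 downregulated, against 1963 and 1316, and 2859 differed between exposures. Without background correction and with loess these counts were 1287, 491 and 2631, against 4218 that differed in the main analysis. The methods' t-test with 2-fold and adjustment called 912 and 810, on 2 degrees of freedom. The named genes that lost the call with it, at adjusted p from 0.0503 to 0.22, were Os01g0192900, Os01g0660200, Os01g0826400, Os01g0836600, Os01g0859300, Os01g0940700, Os01g0941400, Os01g0944500, Os01g0972200, Os01g0974200, Os02g0232900, Os02g0268600, Os02g0550800, Os02g0620600, Os02g0745100, Os03g0155900, Os03g0287400, Os03g0578900, Os03g0693800, Os03g0694000, Os03g0797800, Os04g0128900, Os04g0178300, Os04g0179200, Os04g0179700, Os04g0180400, Os04g0518400, Os04g0556000, Os04g0584100, Os04g0600300, Os04g0604900, Os05g0111300, Os05g0149300, Os05g0149400, Os05g0231700, Os05g0361500, Os05g0457200, Os05g0472700, Os05g0474800, Os05g0482400, Os06g0323100, Os06g0691600, Os06g0701700, Os07g0129800, Os07g0154100, Os07g0537200, Os07g0539900, Os07g0681400, Os08g0173700, Os08g0472800, Os09g0255400, Os09g0527700, Os10g0416500, Os11g0143300, Os11g0184200, Os12g0139400 and Os12g0617400. With no fold threshold, 6240 were upregulated, 7702 downregulated and 10919 differed, and 44.8% of calls were upward against 59.9%. Leaving out each array gave 1745 to 2175 upregulated, 1196 to 1535 downregulated and 3955 to 4328 differing genes. Normalization shifted the median of all genes by at most 0.08. Dim channels limited fold sizes to bounds, and 3 arrays limit the precision. The causes were not tested.

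Replicate numbers were not used to pair the exposures in the main fit. Same-numbered arrays deviated with correlations of -0.235, 0.015 and -0.179, and differently numbered ones with -0.075 to 0.223. Deviations of 3 arrays are tied to each other through their mean, so these values cannot settle whether the arrays were paired. With the replicate block, 1947 genes were upregulated, 1309 downregulated and 4087 differed, and of the named genes the terpene synthase Os04g0179700 lost its call.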
